A study of Ovis aries with 12 samples.

Results

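Wnt ligands, their receptors and their secreted antagonists were measured by RNA sequencing in hippocampal tissue of adult sheep, ewes of the Ile-de-France breed. The family was taken by gene symbol, with the R-spondins, their LGR receptors and the transcription arm of the pathway included. It held 53 of the 33609 genes in the count table: 18 Wnt ligands, 12 receptors, 9 secreted antagonists, 7 R-spondins and LGR receptors, and 7 genes of signal transduction and transcription. Of these, 48 had enough counts to be tested. The groups were dorsal hippocampus under chronic stress, dorsal hippocampus under control conditions, ventral hippocampus under chronic stress and ventral hippocampus under control conditions. Each group held 3 libraries, each prepared from the mixed RNA of 2 ewes. Both regions came from the same 12 ewes, 6 stressed and 6 control, so dorsal and ventral libraries are not independent animals. The p-values measure the spread between these pools, in which differences between single ewes are averaged. All the animals were female, and no label states what the stress was or how long it lasted.

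Wnt proteins are secreted lipid-modified ligands that bind Frizzled receptors (FZD) together with the co-receptors LRP5 and LRP6. In the canonical branch this stops the destruction of beta-catenin, the product of CTNNB1, which then acts with the transcription factors TCF7, TCF7L1, TCF7L2 and LEF1. Secreted Frizzled-related proteins (SFRP, FRZB) and WIF1 bind Wnt ligands, DKK1 and DKK2 act on LRP5 and LRP6, and R-spondins (RSPO) raise the amount of receptor at the cell surface through LGR4, LGR5 and LGR6. In rodents the pathway is needed for the hippocampus to form, and it later takes part in adult neurogenesis in the dentate gyrus and in the growth of dendrites and synapses.

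Library totals ran from 12254743 counts in dorsal stress 3 to 53775720 counts in dorsal control 1. The groups were not parted by the main axis of difference between libraries, which held 58.5% of the variance of log2 CPM, counts scaled to a common library size. It ran through every group, from ventral control 1 at -85.6 to ventral control 3 at 92.2. The second axis, with 18.2% of the variance, did part the regions. Dorsal libraries lay at -34.5 to -22 on it and ventral libraries at 14.7 to 43.3. The dentate marker PROX1 was detected in each of the 12 libraries, at 4.18 to 37.2 CPM in dorsal and 1.19 to 13.1 CPM in ventral tissue. Other dentate markers did not all share that direction. Of 10 tested markers of dentate granule cells, 5 had a positive and 5 a negative log2 fold change of dorsal over ventral tissue (median -0.01). The summed level of the list was 269 to 457, 302 to 375, 287 to 441 and 223 to 441 CPM in dorsal stress, dorsal control, ventral stress and ventral control. Levels below are CPM after scaling by trimmed mean of M values (TMM), with SD over 3 libraries. They are not divided by gene length, so levels of different genes were not compared.

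Between regions 3 members passed the threshold of the main test, all of them secreted. WNT4 and RSPO3 were lower and WNT2 was higher in dorsal than in ventral hippocampus over both conditions. These 3 of 48 tested members (6.25%) were called at an adjusted p under 0.05 in edgeR's quasi-likelihood test, where 4.51% of all 17806 tested genes were called. The share of members was therefore near that of all genes. In the direction of higher dorsal levels the background was 1.44%, and in the lower direction 3.07%. At an unadjusted edgeR p under 0.05 there were 10 of the 48 members, against 13.7% of all genes. The median log2 fold change over the 48 members was -0.13, against -0.02 over all tested genes.

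WNT4, a ligand known from mouse for its part in the development of kidney and female reproductive tract, had the lowest p-value of the family. It stood at 8.46, 7.91 and 4.25 CPM in dorsal stress libraries 1 to 3 and at 6.30, 4.72 and 7.23 CPM in dorsal control libraries 1 to 3. In ventral tissue it stood at 25.5, 43.2 and 19.3 CPM in stress libraries and at 24.1, 43.1 and 20.6 CPM in control libraries. Every ventral library lay above every dorsal library, and the highest value in each ventral group was that of replicate 2. The log2 fold change was -2.18 ± 0.29 (SE, 3 libraries in each of 4 groups), which is 4.52-fold lower in dorsal tissue (edgeR adjusted p = 0.00263, 95% interval -2.82 to -1.53). In a bulk sample a smaller number of expressing cells and less RNA per cell cannot be told apart.

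WNT4 was also the only member called within a single condition. Among control ewes its log2 fold change was -2.26 ± 0.41 (edgeR adjusted p = 0.0324), and 1.00% of all genes were called there, 0.247% as higher and 0.753% as lower in dorsal tissue. That call ended without dorsal control 1, 2 or 3, dorsal stress 2, ventral stress 1 or ventral control 2 (highest edgeR adjusted p = 0.173), with the log2 fold change between -2.40 and -1.87. Among stressed ewes the value was -2.09 ± 0.41 (edgeR adjusted p = 0.0682), and 0 members were called there against 0.444% of all genes (0.0842% higher and 0.359% lower). At an unadjusted edgeR p under 0.05 there were 9 of the 48 tested members among control ewes, against 8.67% of all genes. Among stressed ewes there were 7 of the 48, against 7.86% of all genes. DESeq2 called 2 members there, WNT4 and RSPO3, and 3.00% of all genes.

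RSPO3, an R-spondin that strengthens Wnt signalling through the LGR receptors, was the member with the next lowest p. Its level was 5.77, 11.2 and 13.0 CPM in dorsal stress libraries and 16.7, 11.4 and 10.8 CPM in dorsal control libraries. In ventral stress libraries it was 18.7, 37.3 and 28.8 CPM, and in ventral control libraries 22.3, 38.3 and 29.0 CPM. All 6 dorsal values lay below all 6 ventral values, with a narrow gap between dorsal control 1 and ventral stress 1. The log2 fold change was -1.36 ± 0.26 (edgeR adjusted p = 0.0148), so that dorsal tissue held 2.56-fold less. The call ended without dorsal control 2 (log2 fold change -1.31, edgeR adjusted p = 0.0507).

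WNT2, a ligand that signals through beta-catenin, went the other way. It was 20.0, 12.9 and 13.0 CPM in dorsal stress libraries and 19.7, 15.6 and 14.3 CPM in dorsal control libraries. Ventral stress libraries held 9.79, 7.15 and 5.28 CPM, and ventral control libraries 11.1, 7.19 and 3.92 CPM. The dorsal and ventral libraries did not overlap, and in each group replicate 1 was the highest. The log2 fold change was 1.11 ± 0.27, a 2.15-fold higher level in dorsal tissue, and its edgeR adjusted p of 0.0448 lay close to the threshold. The call was lost in 10 of the 12 fits that left out a single library, where the adjusted p reached 0.117 and the log2 fold change stayed between 0.95 and 1.32 over all 12 fits. It was kept only without ventral control 1 or ventral control 3. With no filter on low counts the adjusted p was 0.0534, and with counts thinned to the depth of the shallowest library it was 0.0693. Of all tested genes 4.90% had dorsal libraries that did not overlap ventral ones, and among the members these 3 did.

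**Figure D1:**
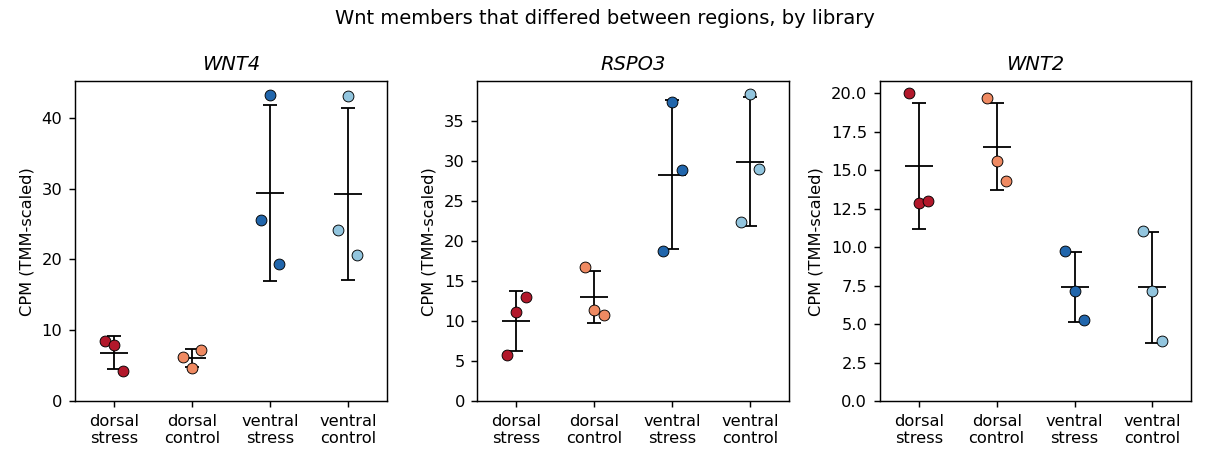
Level of WNT4, RSPO3 and WNT2 (y axis, TMM-scaled CPM) in the 12 libraries by group (x axis); points are libraries, the horizontal mark is the group mean and the bar the SD over 3 libraries. WNT4 and RSPO3 lie lower and WNT2 higher in every dorsal library than in every ventral library, and stress and control libraries of a region overlap.

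None of the other 12 tested ligands was called, 8 with a negative and 4 with a positive log2 fold change of dorsal over ventral tissue. WNT10B, which acts through beta-catenin, was 1.92 ± 1.19 CPM in dorsal stress and 2.37 ± 0.956 CPM in dorsal control, against 4.32 ± 1.65 CPM in ventral stress and 6.01 ± 1.85 CPM in ventral control (SD, n = 3 each). Its log2 fold change was -1.25 ± 0.35 (edgeR adjusted p = 0.0824). WNT16 had -1.37 ± 0.43 (edgeR adjusted p = 0.123), and WNT7A, a ligand of neural progenitors and of brain vessels in mouse, had -0.74 ± 0.41 (edgeR adjusted p = 0.547). WNT5A, the best known ligand of the branches that bypass beta-catenin, had 0.55 ± 0.36 (edgeR adjusted p = 0.681). The remaining 8 tested ligands had log2 fold changes between -1.04 for WNT6 and 0.38 for WNT3A, with intervals that included 0. WNT6 varied from 0.0675 CPM in dorsal control 2 to 2.91 CPM in ventral control 1.

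No receptor was called. FZD1 had the lowest p of the 12, at 17.2, 15.7 and 19.7 CPM in dorsal stress and 16.6, 14.7 and 14.1 CPM in dorsal control, against 19.4, 27.4 and 24.7 CPM in ventral stress and 21.6, 22.0 and 20.0 CPM in ventral control. The regions overlapped by the values of dorsal stress 3 and ventral stress 1, and the log2 fold change was -0.46 ± 0.13 (edgeR adjusted p = 0.0884). FZD4, a receptor of brain endothelium, lay between 15.6 and 21.4 CPM in all 12 libraries, with a log2 fold change of -0.12 and a 95% interval from -0.38 to 0.14. The co-receptors LRP5 and LRP6 had -0.37 ± 0.34 and -0.21 ± 0.46. The other receptors lay between -0.59 for FZD2 and 0.31 for FZD5.

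Of the 9 antagonists FRZB came closest to the threshold. This decoy of Wnt ligands, which in mouse restrains adult neurogenesis in the dentate gyrus, was 9.65, 9.33 and 10.1 CPM in dorsal stress and 8.49, 10.1 and 12.2 CPM in dorsal control. It was 14.2, 17.7 and 16.6 CPM in ventral stress and 10.8, 23.7 and 17.1 CPM in ventral control. Only ventral control 1 overlapped the dorsal libraries, and the log2 fold change was -0.74 ± 0.20 (edgeR adjusted p = 0.0602). SFRP4 had -0.79 ± 0.30 (edgeR adjusted p = 0.229). DKK3, a divergent member of the Dickkopf family, was at 589 to 824 CPM in dorsal and 536 to 758 CPM in ventral libraries, with 0.08 ± 0.13. SFRP1 had -0.04 ± 0.15 and WIF1 0.31 ± 0.40.

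The R-spondins had fold changes of opposite sign. RSPO2 was 15.5, 26.6 and 24.9 CPM in dorsal stress and 9.65, 22.4 and 24.6 CPM in dorsal control, against 17.7, 9.17 and 15.0 CPM in ventral stress and 8.12, 7.29 and 12.0 CPM in ventral control. Its dorsal and ventral values overlapped, and the log2 fold change was 0.86 ± 0.28 (edgeR adjusted p = 0.135). RSPO1 had 1.39 ± 0.50 (edgeR adjusted p = 0.197) and rested on 2 to 43 counts per library. Their receptors LGR4, LGR5 and LGR6 had -0.58 ± 0.40, -0.18 ± 0.50 and -0.59 ± 0.33, none of them called.

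No member of the transcription arm was called, and their fold changes had the narrowest range of the 5 roles, from -0.24 for TCF7L2 to 0.11 for AXIN1, AXIN2 and TCF7. AXIN2, a brake on the pathway that is also a direct target of beta-catenin and so a common readout of it, was 12.7, 9.83 and 11.8 CPM in dorsal stress and 13.2, 11.3 and 11.1 CPM in dorsal control. It was 12.0, 12.6 and 10.4 CPM in ventral stress and 7.56 to 12.6 CPM in ventral control. The groups overlapped, and the 95% interval of its log2 fold change ran from -0.25 to 0.46. A difference smaller than this could not be resolved with these libraries.

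**Figure D2:**
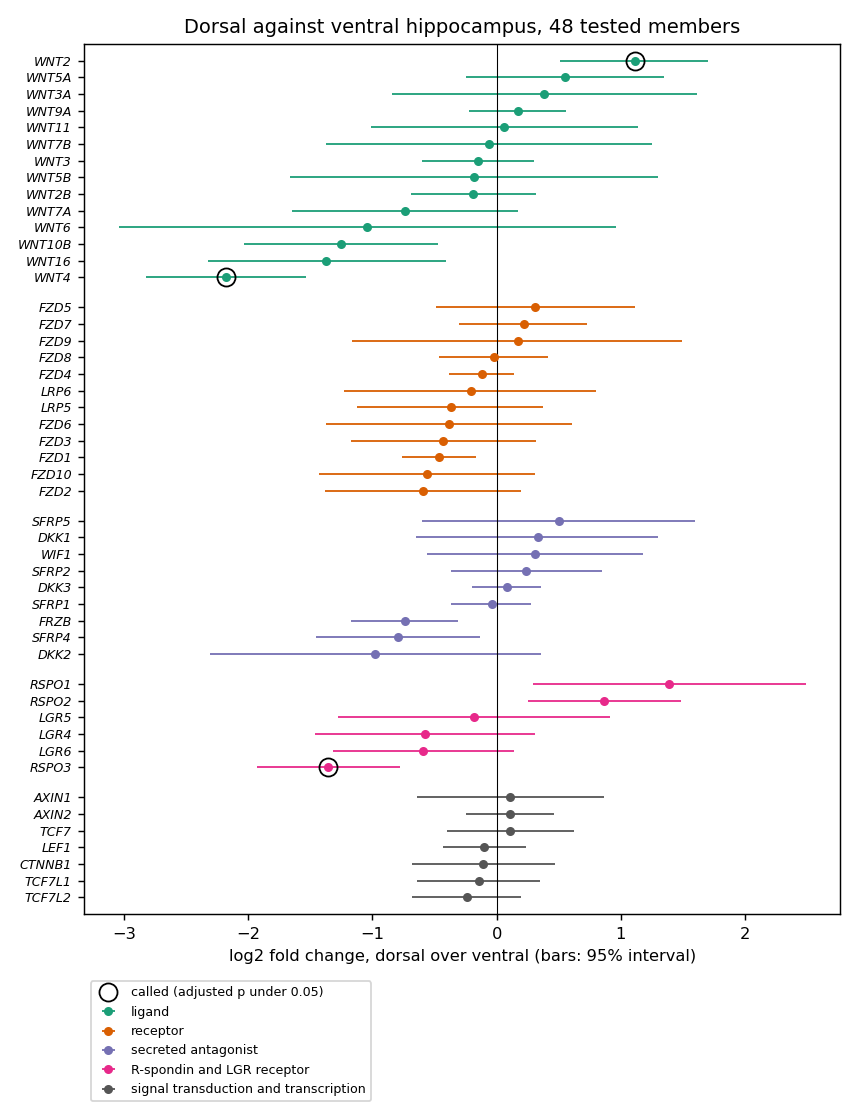
Log2 fold change of dorsal over ventral hippocampus (x axis) for the 48 tested members, grouped by role and ordered by size within a role; bars are 95% intervals and circles mark members called in edgeR. Only WNT2 on the dorsal side, and WNT4 and RSPO3 on the ventral side, are circled, and the genes of signal transduction and transcription lie between -0.24 and 0.11.

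Other genes of the pathway were taken from 6 lists, chosen with earlier results of these data known. Of 131 tested genes 1 was higher and 3 were lower in dorsal tissue (3.05%, against 4.51% of all genes). SOSTDC1, a secreted antagonist of BMP and Wnt signalling, was at 0.138 to 1.47 CPM in dorsal and 1.39 to 4.23 CPM in ventral libraries, with a log2 fold change of -2.05 ± 0.48 (edgeR adjusted p = 0.0375). ADGRA2, which with RECK carries WNT7 signals into brain endothelial cells, had -0.78 ± 0.17 (edgeR adjusted p = 0.0302). CCDC88C, which binds Dishevelled, had -0.75 ± 0.15 (edgeR adjusted p = 0.0186). The calcium-dependent kinase CAMK2A, also a marker of excitatory neurons, had 0.60 ± 0.13 (edgeR adjusted p = 0.0265). These calls ended without 9, 9, 5 and 7 of the 12 libraries in turn for SOSTDC1, ADGRA2, CCDC88C and CAMK2A. With thinned counts the SOSTDC1 call ended as well (edgeR adjusted p = 0.0803).

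By list, 1 of 17 genes of secretion and extracellular control was called, as were 1 of 16 other receptors and membrane regulators, 1 of 24 genes of the planar polarity and calcium branches and 1 of 31 of the destruction complex and Dishevelled. None of 23 nuclear co-factors and none of 26 target genes was called, where 4.51% of all genes were. The median log2 fold change of the target genes was -0.24. WLS and PORCN, which are needed for cells to release Wnt ligands, had 0.53 ± 0.18 and 0.43 ± 0.17 (edgeR adjusted p = 0.164 and 0.253). RNF43 and ZNRF3, the receptor-removing enzymes that R-spondins oppose, had -0.56 ± 0.21 and -0.44 ± 0.23 (edgeR adjusted p = 0.238 and 0.477).

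Markers of neighbouring tissues and of some neuron types moved with the same contrast, in which 4.51% of all genes were called. Of 12 meningeal fibroblast markers 8 were lower and 0 higher in dorsal tissue, with a median log2 fold change of -1.35. Their summed level was 193 to 211 CPM in dorsal stress and 172 to 284 CPM in dorsal control, against 529 to 697 CPM in ventral stress and 389 to 733 CPM in ventral control. Of 11 thalamic and habenular markers 4 were lower, with sums of 145 to 227 and 217 to 269 CPM in dorsal stress and dorsal control and of 288 to 506 and 347 to 606 CPM in ventral stress and ventral control. Of 14 choroid plexus markers 4 were higher and 1, SOSTDC1, was lower, with sums of 473 to 1080, 791 to 2960, 189 to 214 and 233 to 535 CPM in dorsal stress, dorsal control, ventral stress and ventral control. A single marker, TTR, made up most of the dorsal sums. It was at 361 to 943 CPM in dorsal stress and 636 to 2810 CPM in dorsal control. In ventral stress it was at 32.5 to 53.1 CPM, and in ventral control at 33.9 to 413 CPM. Over the 14 markers 8 log2 fold changes were positive and 6 negative (median 0.29). Of 10 subiculum markers 5 were lower, and of 10 markers of excitatory neurons 3 were higher, in dorsal tissue. No marker of the lists above in the table was at 0 in every library. Among further lists, 1 of 11 inhibitory neuron markers was higher and 3 were lower, and 3 of 11 striatal markers were lower. All 14 oligodendrocyte and all 11 ependymal markers had positive log2 fold changes, with 1 and 0 called. No endothelial, mural, astrocyte or microglial marker was called. The part of these tissues and cells in the WNT4, RSPO3 and WNT2 differences was not tested by a separate measurement.

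The meningeal score, the mean log2 CPM of those 12 markers centred on the 12 libraries, lay between -1.04 and -0.19 in dorsal and between 0.15 and 1.16 in ventral libraries. Region and score therefore cannot be told apart: with the score as a covariate 0 of 17806 genes were called in edgeR. In that fit the log2 fold changes were -0.96 ± 0.69 for WNT4, -0.95 ± 0.81 for RSPO3 and 0.39 ± 0.70 for WNT2. With the choroid plexus score in its place they were -1.64 ± 0.50 for WNT4, -1.88 ± 0.45 for RSPO3 and 1.81 ± 0.41 for WNT2, and the 3 calls ended (edgeR adjusted p = 0.127, 0.0881 and 0.0736). Among libraries of the same region the highest WNT4 and RSPO3 values in ventral tissue, those of ventral stress 2 and ventral control 2, came with the highest meningeal scores, 1.00 and 1.16. In dorsal tissue the order was mixed. Dorsal control 3, with the highest dorsal score of -0.19, held the highest WNT4 and the lowest RSPO3 level of its group. Dorsal stress 2, with the lowest score of -1.04, held more WNT4 than the other dorsal libraries except dorsal stress 1.

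**Figure D3:**
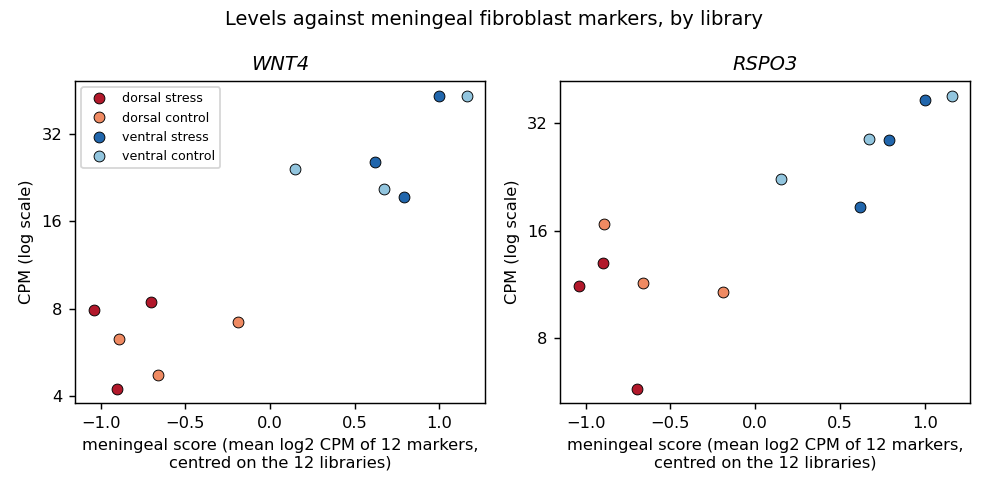
Level of WNT4 and RSPO3 (y axis, CPM on a log scale) against the meningeal score (x axis, mean log2 CPM of 12 markers centred on the 12 libraries); each point is a library, coloured by group. Dorsal libraries lie at scores of -1.04 to -0.19 and ventral libraries at 0.15 to 1.16, so that no scores are shared between the regions.

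Libraries of the same group also differed widely in this family. The widest range within a group, 38.6-fold for WNT5B in ventral control, rested on 2 counts in ventral control 3. Once group means were removed, a single axis, called here the first residual factor, held 75.3% of the remaining variance. Its score ran from -81.3 in ventral control 1 to 96.4 in ventral control 3. FZD9 was at 12.2, 3.90 and 2.94 CPM in dorsal stress, 9.24, 4.92 and 5.12 CPM in dorsal control, 5.30, 6.32 and 1.88 CPM in ventral stress and 15.0, 5.85 and 0.924 CPM in ventral control. The ventral control libraries thus differed 16.2-fold, and dorsal control 1 and dorsal stress 1 were the highest of their groups.

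The co-receptors LRP5 and LRP6 ran along this axis in opposite directions. LRP5 was 11.7, 9.22 and 7.52 CPM in dorsal stress, 10.7, 7.71 and 8.21 CPM in dorsal control, 13.1, 16 and 6.56 CPM in ventral stress and 18.9, 12.3 and 4.51 CPM in ventral control. LRP6 was 19.1, 41.5 and 61.4 CPM in dorsal stress, 17.9, 38.2 and 30.0 CPM in dorsal control, 23.9, 25.8 and 66.6 CPM in ventral stress and 16.6, 23.8 and 80.3 CPM in ventral control. Ventral control 1 held the highest LRP5 and the lowest LRP6 of the 12 libraries, and ventral control 3 the lowest LRP5 and the highest LRP6. Over the 12 libraries, Pearson's r of the deviation from the group mean with the factor was -0.95 for LRP5 and 0.98 for LRP6. These values are a description, since the factor was built from the same libraries.

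Ligands, receptors, antagonists and transduction genes lay at both ends. Those with r of 0.92 or more were WNT5A, FZD3, FZD6, FZD7, LRP6, DKK2, LGR4 and CTNNB1, and those with r of -0.91 or less were WNT11, WNT2, FZD9, LRP5, SFRP5 and AXIN1. Over the family, 29 of 48 members (60.4%) had an absolute r over 0.7, 15 positive and 14 negative, against 66.0% of all tested genes. The members' share was thus near that of all genes. CTNNB1 itself was at 145 CPM in ventral control 1 and 376 CPM in ventral control 3, a 2.60-fold range in that group. FZD4, FZD1, DKK3 and LEF1 varied at most 1.41-fold within any group. WNT4 and RSPO3 had r of -0.58 and 0.24, and WNT2 -0.91. The dentate marker PROX1 was at 1.97 CPM in ventral control 1 and 13 CPM in ventral control 3. The summed level of 14 endothelial markers, 1 of them (ITM2A) at 0, was 322 to 383 CPM in ventral control, although its member CLDN5 was at 48.1 and 1.18 CPM in those 2 libraries. The part of cell composition or RNA quality in this axis was not tested.

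**Figure D4:**
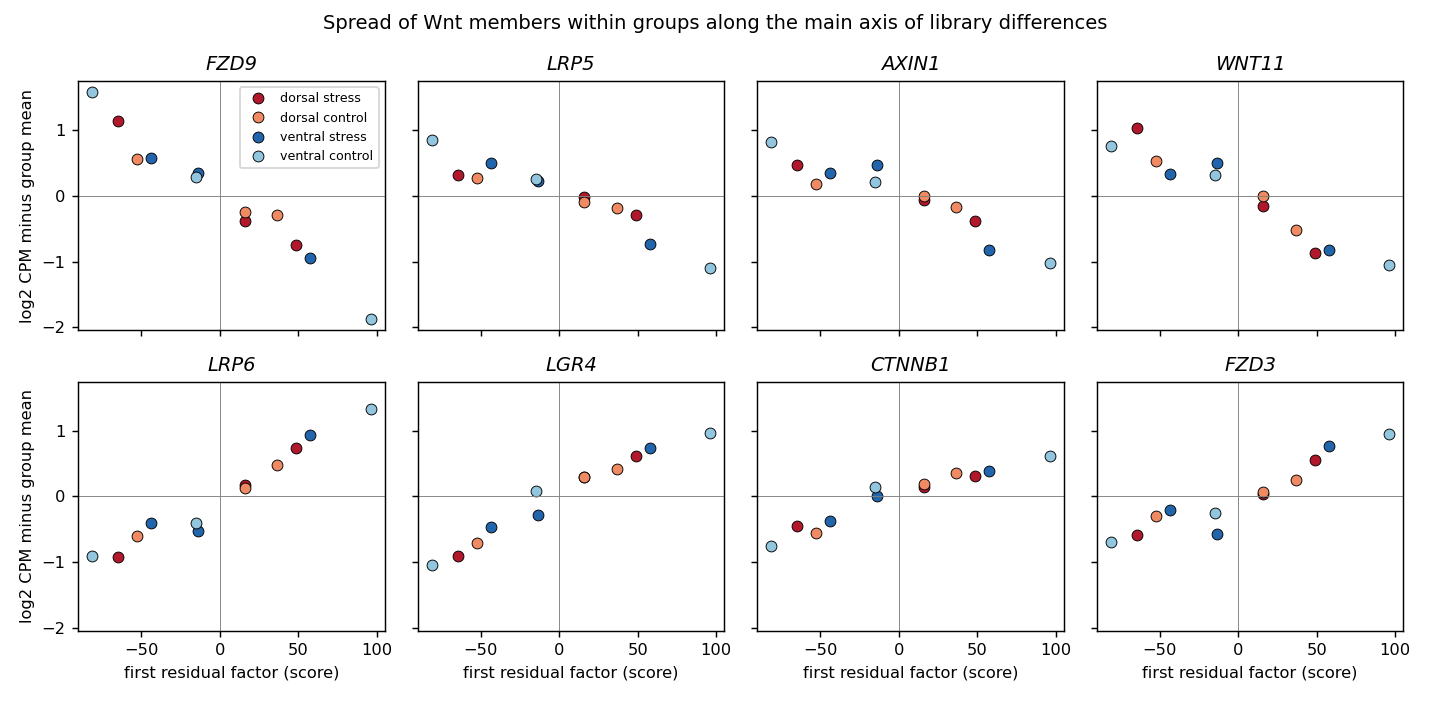
Deviation of log2 CPM from the group mean (y axis) against the score of the first residual factor (x axis) for 4 members that fall along it (FZD9, LRP5, AXIN1 and WNT11) and 4 that rise along it (LRP6, LGR4, CTNNB1 and FZD3); each point is a library, coloured by group. All 4 groups spread over the axis, with ventral control 1 at -81.3 and ventral control 3 at 96.4.

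With this factor as a covariate 12 of 48 members were called between regions (25.0%), against 21.6% of all genes. WNT4, RSPO3 and WNT2 stayed called, at -2.16 ± 0.22, -1.36 ± 0.24 and 1.15 ± 0.13. Called in addition were WNT10B (-1.27 ± 0.22), WNT16 (-1.28 ± 0.28), FRZB (-0.74 ± 0.16), SFRP4 (-0.82 ± 0.21), FZD1 (-0.46 ± 0.10), FZD3 (-0.34 ± 0.11) and LGR4 (-0.52 ± 0.09) on the lower side in dorsal tissue, and RSPO2 (0.83 ± 0.19) and WNT5A (0.59 ± 0.11) on the higher side. The edgeR adjusted p of these 9 lay between 0.00102 for LGR4 and 0.0447 for FZD3. Because the factor was estimated from the same counts, these errors may be too small. DESeq2 without the factor called 8 members, where it called 7.38% of all genes: the 3 above and WNT10B, WNT16, FRZB, FZD1 and RSPO2.

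Chronic stress was compared with control in each region, averaged over regions, and as a difference of the 2 effects. No member was called in any of these 4 comparisons, and 0% of all 17806 genes were called by edgeR. At an unadjusted edgeR p under 0.05 there were 0 members in dorsal, 1 in ventral, 2 averaged and 0 for the difference, against 0.854%, 0.797%, 1.73% and 0.258% of all genes. DESeq2 called 1, 0, 12 and 0 genes, none of them a member. The median log2 fold change of the members was 0.06 in dorsal and 0.01 in ventral tissue, against 0.01 and -0.03 over all genes.

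For the 3 members that parted the regions, log2 fold changes of stress lay between -0.38 and 0.18, with wide intervals that included 0. For WNT4 the log2 fold change of stress over control was 0.18 (95% interval -0.70 to 1.06) in dorsal and 0.00 (-0.86 to 0.87) in ventral tissue. For RSPO3 it was -0.38 (-1.18 to 0.42) and -0.08 (-0.87 to 0.71), and for WNT2 -0.11 (-0.94 to 0.72) and 0.00 (-0.83 to 0.84). AXIN2 had -0.05 (-0.56 to 0.46) in dorsal and 0.21 (-0.29 to 0.72) in ventral tissue. These intervals leave room for changes in either direction.

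RSPO1 had the smallest unadjusted p for stress in both regions. It was 2.14, 0.862 and 0.654 CPM in dorsal stress against 0.551, 0.495 and 0.469 CPM in dorsal control, and 0.929, 0.198 and 0.537 CPM in ventral stress against 0.192, 0.248 and 0.0560 CPM in ventral control. The dorsal groups did not overlap and the ventral groups did. The log2 fold change was 1.27 ± 0.68 in dorsal, 1.76 ± 0.73 in ventral and 1.52 ± 0.50 averaged (edgeR unadjusted p = 0.0884, 0.0356 and 0.0116, adjusted p = 1 for each). Without dorsal stress 1 the dorsal value was 0.59, and with thinned counts 0.73.

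SFRP5, a secreted antagonist, had the reverse sign. It was 3.78, 2.89 and 1.31 CPM in dorsal stress against 11.1, 4.21 and 2.77 CPM in dorsal control, and 1.51, 2.73 and 1.04 CPM in ventral stress against 7.98, 4.46 and 1.37 CPM in ventral control. Stress and control overlapped in both regions, and replicate 1 was the highest library of each control group. The averaged log2 fold change was -1.28 ± 0.50 (edgeR unadjusted p = 0.0281, adjusted p = 1). With the first residual factor as a covariate it was -1.12 ± 0.22 (edgeR adjusted p = 0.0278), the single member called for stress under any alternative. In that fit 2.27% of all genes were called for stress. The SFRP5 error may be too small there, because the factor was estimated from the same counts. SFRP5 itself had r of -0.92 with the factor.

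The other members named by their low p did not pass. FZD4 was 18.6, 20.6 and 21.2 CPM in dorsal stress against 17.9, 15.6 and 15.8 CPM in dorsal control, a log2 fold change of 0.29 ± 0.17 (edgeR adjusted p = 1), and its ventral value was 0.02 ± 0.17. TCF7, a transcription factor of the canonical branch, was 3.83, 2.53 and 2.68 CPM in ventral stress against 1.61, 1.79 and 2.3 CPM in ventral control, a log2 fold change of 0.67 ± 0.33 (edgeR adjusted p = 1). Its dorsal value was -0.09 ± 0.33, and the difference of the stress effects, dorsal minus ventral, was -0.75 ± 0.46 (edgeR adjusted p = 1). In these cases the dorsal groups did not overlap for FZD4, nor the ventral groups for TCF7.

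WNT7B, at 0.0721 to 1.78 CPM, had 1.11 ± 0.59 averaged over regions (edgeR adjusted p = 1), and 0.63 without ventral stress 1. WNT3A, a ligand needed in mouse for the hippocampus to grow, was 0.299, 1.62 and 0.327 CPM in dorsal stress against 0.236, 1.24 and 1.80 CPM in dorsal control. It was 1.12, 1.38 and 0.865 CPM in ventral stress against 0.529, 0.446 and 0.308 CPM in ventral control. Its ventral groups did not overlap, its dorsal groups did, and the difference of the stress effects was -1.89 ± 1.11 (edgeR adjusted p = 1). That difference was -3.17 without dorsal stress 2 and -1.33 without dorsal control 3. Stress and control libraries did not overlap for 2 members in dorsal tissue, RSPO1 and FZD4, and for 3 in ventral tissue, WNT3, WNT3A and TCF7, all higher under stress. Among all genes these shares were 5.13% and 2.86%.

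**Figure D5:**
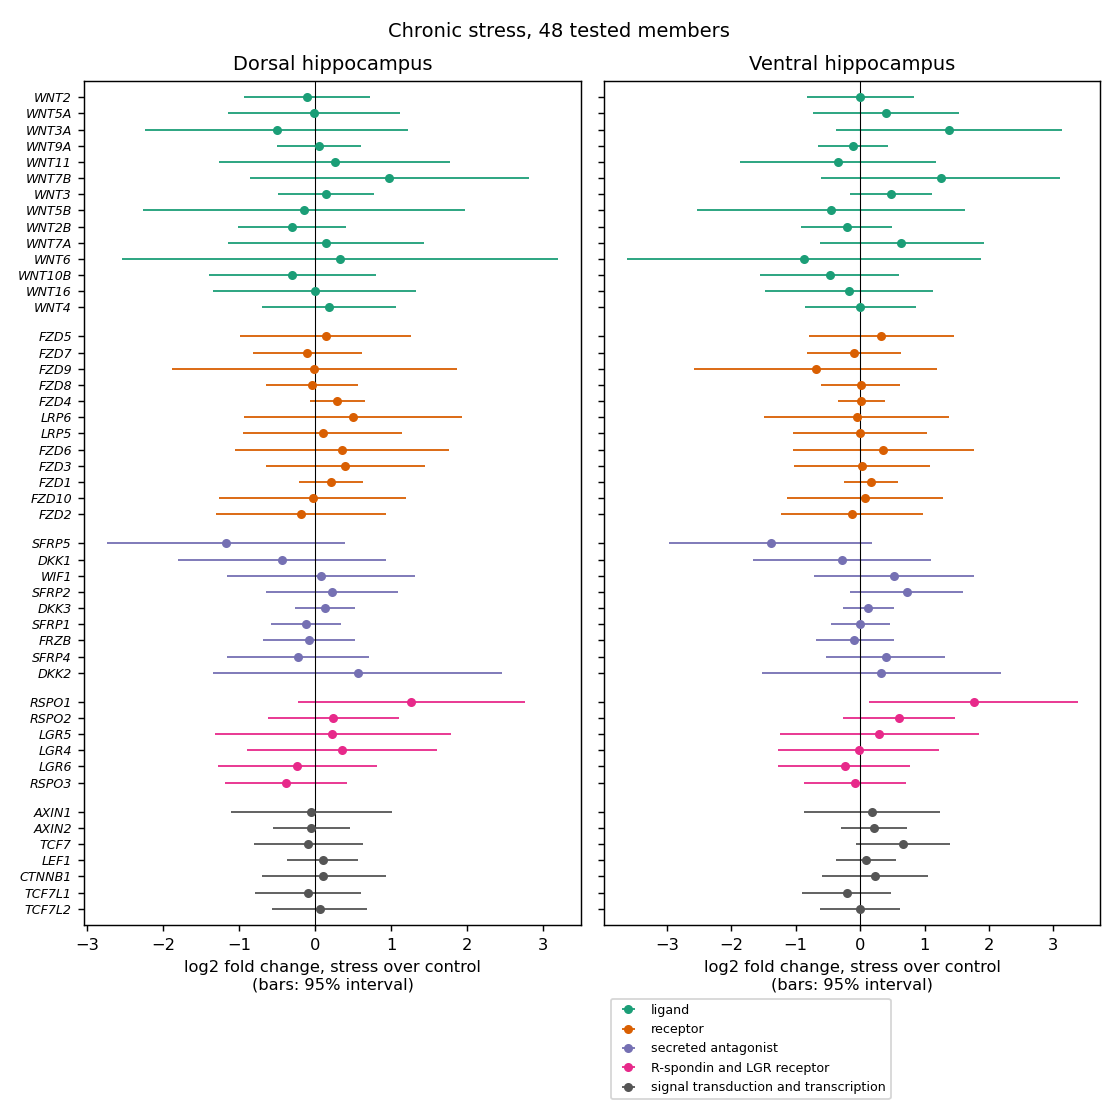
Log2 fold change of stress over control (x axis) in dorsal (left) and ventral (right) hippocampus for the 48 tested members, in the order of the plot of regional fold changes; bars are 95% intervals. Values run from -1.17 to 1.27 in dorsal and from -1.39 to 1.76 in ventral tissue, and no member passed the adjusted threshold.

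None of the 131 other pathway genes was called for stress in either region, averaged, or for the difference (edgeR, 0% of all genes called in each). Their median log2 fold change was 0.07 in dorsal and 0.00 in ventral tissue. The dorsal stress libraries, at 12254743 to 21244822 counts, were shallower than the dorsal control libraries, at 24952808 to 53775720 counts, so that a given CPM rested on fewer counts under stress.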

How the data were processed

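The authors deposited raw gene counts for 12 libraries, whole numbers with no normalization. The submitters' processing notes name featureCounts 2.0.0, SAMtools 1.9, Bowtie2 2.3.5.1, TopHat2 2.1.1, FastQC and bcl2fastq 2.20. RNA was extracted with TriReagent and libraries were made with a stranded polyadenylated RNA kit, per the labels' protocols. The strand setting, annotation, genome build and handling of multi-mapping reads were not given in the sources used here, so genes with close copies or antisense partners are uncertain and no positions are printed. Columns were matched to samples by the codes in the sample descriptions. Codes with DG belonged to samples titled dorsal hippocampus, and codes with vHip to samples titled ventral hippocampus. The titles and descriptions do not spell out DG.

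Tests were run with edgeR 4.0.16 under R 4.3.3: filterByExpr by group (17806 of 33609 genes kept), TMM, and the robust quasi-likelihood F test with 1 mean per group over all 12 libraries. P-values were adjusted by Benjamini-Hochberg over all tested genes and called under 0.05. Each SE was derived from the log2 fold change and its F statistic, and 95% intervals use the t distribution with the test's degrees of freedom. At the shallowest library 1 CPM is 12.3 counts. Principal components used log2(CPM + 0.5). Steps were tested on simulated counts.

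Alternatives were RLE size factors, no filter, 1 CPM in 3 libraries, DESeq2 1.42.0, limma-voom (limma 3.58.1), replicate blocks, thinned counts, choroid plexus and meningeal scores, the first residual factor, each library left out, and, added after seeing the data, both ends of the first component left out.

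The members and lists were chosen with earlier results of these data known. Values are given for members called in any of 7 comparisons and for the 3 with the smallest p in each stress comparison. Other members are named as group values, and those given by library beyond this rule (FZD1, FRZB, RSPO2, AXIN2 and those shown for the spread within groups) were chosen after their values were seen. For LOC placeholders, symbols of list genes came from RefSeq's ARS-UI_Ramb_v3.0 table by GeneID (471 rows renamed, 0 of them members).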

Additional observations from a re-analysis of the deposited data

How the results depend on the processing

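Between regions over both conditions 3 members were called, against 4.51% of all genes. DESeq2 called 8 (7.38% of all genes), the fit with a replicate block by number 6 (7.72%), the first residual factor 12 (21.6%), the choroid plexus score 0 (0.809%) and the meningeal score 0 (0%). Leaving out a library gave 1 to 5 members and 420 to 1091 of all genes, with 1 member without dorsal control 2 (2.48%) and 5 without ventral control 1 (6.01%). In control ewes 1 member was called, against 2 with the replicate block by number (2.47% of all genes), 10 with the residual factor (11.8%), 0 with the choroid plexus score (0.0168%), 0 with the meningeal score (0%), 0 without both ends of the first component (0.245%), and 0 to 1 without a library (2 to 319 genes). In stressed ewes 0 were called, against 2 in DESeq2 (3.00%), 1 with the replicate block by number (1.76%), 5 with the residual factor (9.10%), 1 without both ends (0.762%), and 0 whichever library was left out (1 to 159 genes). Both ends belong to ventral control, which leaves that group 1 library, assumed to vary like the others. For stress averaged over regions 0 became 1 with the residual factor (2.27%). The other counts of members stayed within 1.5 times.

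The labels do not say that equal numbers mark the same ewes across regions. Same-number correlations of deviations from group means, dorsal with ventral, were 0.80, -0.20 and 0.44 in control and 0.33, -0.33 and 0.85 under stress, and not every library correlated best with its own number, so the block is given here only. With a block by pool (condition and number) 4, 1 and 0 members were called between regions over both conditions, in control and in stressed ewes (4.62%, 0.876% and 0.320% of all genes), and the call of ADGRA2 ended (edgeR adjusted p = 0.0585). The calls of ADGRA2, CCDC88C and CAMK2A also ended with either tissue score. SOSTDC1 was no longer called with the choroid plexus score, but its own level enters that score, so the loss cannot be read. It turned to 0.11 ± 1.28 with the meningeal score (edgeR adjusted p = 1), a score that parts the regions. Of the stress values, none of them called by edgeR without a covariate, the range over alternatives was 0.57 to 1.60 for WNT7B averaged over regions, -1.91 to -0.89 for SFRP5 averaged over regions and -3.17 to -1.33 for the WNT3A difference. The cause of the other changes was not tested.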

Other observations

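The 5 members with too few counts to be tested were WNT1, WNT8A, WNT8B, WNT10A and RSPO4. WNT8B, a ligand of the embryonic cortical hem in mouse, had 12 counts in 4 of 6 dorsal libraries and 2 counts in 2 of 6 ventral libraries, of 174488508 and 182849254 counts in all. WNT8A had 30 counts in 5 of 6 dorsal libraries and 64 in 6 of 6 ventral libraries, and WNT10A 12 and 23. WNT1 had 1 count, in dorsal stress 3. All 10 counts of RSPO4 lay in ventral stress 1.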
